A study of Mus musculus with 6 samples.

Results

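The genes described here are 52 genes of the cell division cycle and of DNA replication, chosen by name and matched by gene symbol among 23699 gene models in the duodenum of control and Nkx2-2 mutant mice. All 52 matched 1 gene model each. By function, 21 act in DNA replication and 23 were grouped as mitotic, with Plk4 of centriole duplication among them. A further 4 encode G1/S kinase subunits or the S-phase checkpoint kinase, and 4 encode transcription factors of the cycle. RNA came from the 2 cm of duodenum next to the stomach of mice aged 6 weeks on a mixed background, with 3 control and 3 mutant libraries. Controls were Nkx2.2flox/+ and so carried 1 floxed allele and no Cre transgene. Mutants 1 and 2 were Nkx2.2flox/flox; Villin-Cre/+, and mutant 3 was Nkx2.2flox/flox; Villin-Cre/+; Rosa26Tomato/+, so that mutant 3 alone also carried a reporter allele. Villin-Cre acts in the intestinal epithelium, and the tissue also held muscle, nerve and immune cells in which the floxed alleles would stay intact. Whether each library is a separate mouse is not stated in the labels, and every p-value here rests on the spread among libraries, which may be technical.

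The intestinal epithelium is renewed throughout life. Stem cells and transit-amplifying cells divide in the crypts, and their daughters stop dividing as they move onto the villi. Within the epithelium, transcripts of the division machinery thus mark the crypts. Dividing cells outside the epithelium would add to the same transcripts, and their part here was not tested. In G1 the origin recognition complex, Cdc6 and Cdt1 load the Mcm2-7 helicase onto DNA, and Cdc45 and the GINS complex activate it in S phase. Cyclin A and cyclin B with Cdk1 then drive entry into mitosis, where Aurora, Polo and Bub1 kinases and kinesin motors attach and separate the chromosomes, until Cdc20 directs cyclin B to destruction. Genes of replication are mostly switched on by E2F factors at the start of S phase, and genes of mitosis later by the B-Myb and Foxm1 factors through elements that include CCAAT boxes and the cell cycle genes homology region, called CHR.

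Sequencing depth lay between 20960000 and 26250000 fragments per library, as rounded values. The transcript of the targeted gene, Nkx2-2 (chr2:147003282-147012138, mm9), lay at 1.13, 1.32 and 0.779 FPKM (fragments per kilobase of transcript, scaled to library depth) across controls 1 to 3 against 1.10, 0.736 and 0.221 FPKM across mutants 1 to 3, so the groups overlapped (limma adjusted p = 0.999). Libraries 3 of both groups stood apart from the other 4. Over 13596 genes, their deviations from the group means correlated at 0.58 with each other and between -0.32 and -0.43 with libraries 1 and 2 of the other group. Deviations within a group cancel out for each gene, so the negative values largely follow from the positive one. The main results below are therefore given library by library.

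The promoters of the 2 main classes differ in the elements they hold, and 6 of them are printed to show this. RefSeq promoters (GRCm38.p6, 250 bases before to 50 after the annotated start) were found for 42 of the 52 genes, and 10 were not found (Ccna2, Ccne2, Aurkb, Kif20a, Tpx2, Foxm1, Mcm4, Pole, Gins1 and Gins2). The letters searched on both strands were TTTGAA and TTCGAA for the CHR, CCAAT for the CCAAT box, and for E2F any of TTCCCGC or TTCGCGC or TTGCCGC or TTGGCGC. The last E2F word read on the other strand shares bases with a CCAAT box where GCGCCAA is followed by T. A gene was counted where any of its promoters held the letters (Mcm7 and Uhrf1 have 2 promoters each), and the same was done for 27025 genes with 32851 promoters. CHR letters occurred in 14 of 19 mitotic and 3 of 17 replication genes, against 21.7% of all genes and 19.2% of all promoters. E2F letters occurred in 11 of 17 replication and 4 of 19 mitotic genes, against 10.9% of all genes and 9.57% of all promoters. CCAAT boxes were common to both, in 16 of 19 mitotic and 13 of 17 replication genes, against 41.1% of all genes and 37.4% of all promoters. A match of letters is a description and does not show that a factor is bound.

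Printed are the 250 bases before the start, 5′ to 3′ on the strand of the gene, with matches to any of these letters in capitals. The first 4 are mitotic genes: Top2a (chr11:99024190-99024439, minus strand), Mki67 (chr7:135716380-135716629, minus strand), Kif11 (chr19:37376132-37376381, plus strand) and Ccnb1 (chr13:100786487-100786736, minus strand). Top2a, Mki67 and Kif11 were among the mitotic genes with the largest differences below and hold CHR letters beside CCAAT boxes. Mki67 also holds an E2F word. Ccnb1, a marker of mitosis, holds CCAAT boxes and none of the CHR letters searched in this window. Its E2F word shares bases with a CCAAT box, and other forms of the CHR were not searched.
Top2a: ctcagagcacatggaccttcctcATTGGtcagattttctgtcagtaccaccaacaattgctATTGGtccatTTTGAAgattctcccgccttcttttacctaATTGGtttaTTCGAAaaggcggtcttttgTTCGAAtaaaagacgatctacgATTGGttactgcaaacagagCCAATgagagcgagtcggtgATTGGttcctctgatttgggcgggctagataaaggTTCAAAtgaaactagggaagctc
Mki67: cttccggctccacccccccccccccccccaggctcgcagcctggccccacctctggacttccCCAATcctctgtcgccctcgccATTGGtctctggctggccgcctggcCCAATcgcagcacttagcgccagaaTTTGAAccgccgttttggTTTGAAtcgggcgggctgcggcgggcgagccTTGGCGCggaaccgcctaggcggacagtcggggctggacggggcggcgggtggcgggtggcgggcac
Kif11: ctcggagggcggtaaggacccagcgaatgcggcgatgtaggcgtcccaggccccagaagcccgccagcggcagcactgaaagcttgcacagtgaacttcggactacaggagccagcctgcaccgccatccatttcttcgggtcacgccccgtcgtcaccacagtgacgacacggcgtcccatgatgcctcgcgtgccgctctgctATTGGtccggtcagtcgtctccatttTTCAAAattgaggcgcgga
Ccnb1: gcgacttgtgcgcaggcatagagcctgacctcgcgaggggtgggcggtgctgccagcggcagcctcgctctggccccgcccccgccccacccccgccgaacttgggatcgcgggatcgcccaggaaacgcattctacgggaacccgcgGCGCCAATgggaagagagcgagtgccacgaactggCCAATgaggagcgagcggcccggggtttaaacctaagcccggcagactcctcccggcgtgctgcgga
The other 2 are helicase subunits: Mcm5 (chr8:75109259-75109508, plus strand), a marker of replication, and Mcm6 (chr1:128359706-128359955, minus strand), the replication gene with the largest difference. Both hold clustered E2F words and CCAAT boxes and no CHR letters.
Mcm5: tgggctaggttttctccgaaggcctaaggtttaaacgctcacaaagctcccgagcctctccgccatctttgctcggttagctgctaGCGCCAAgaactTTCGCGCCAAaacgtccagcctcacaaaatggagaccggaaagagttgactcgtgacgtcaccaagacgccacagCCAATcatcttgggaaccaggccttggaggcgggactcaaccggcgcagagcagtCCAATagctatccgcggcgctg
Mcm6: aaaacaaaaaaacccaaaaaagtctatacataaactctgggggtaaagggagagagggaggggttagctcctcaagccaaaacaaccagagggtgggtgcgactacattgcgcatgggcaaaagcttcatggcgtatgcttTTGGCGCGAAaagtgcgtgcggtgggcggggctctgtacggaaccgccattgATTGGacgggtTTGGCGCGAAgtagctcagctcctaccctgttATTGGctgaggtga

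Transcripts of the division cycle were lower in the mean of the mutants for 49 of the 52 genes, by small amounts that did not pass the test. The median log2 change of the 52, mutant minus control, was -0.25, against -0.02 over all genes tested, and 55.8% of all genes tested had a change below 0. All 52 passed the filter on low values, and 0 of them passed limma's adjusted threshold of 0.05, where 3 of 13596 genes (0.0221%) did. At an unadjusted p under 0.05 there were 4 of the 52, all lower (Mcm6, Tpx2, Kif11 and Top2a), where 3.43% of all genes reached that p and 1.63% did so with a lower level. The adjusted p was 0.999 for each of the 52. In none of the 52 did all 3 mutants lie below all 3 controls, a pattern found in 3.71% of all genes. The interval that Cufflinks gives around a value was ± 3.15% to ± 23.9% of it for these genes. In bulk tissue, fewer dividing cells and less of each RNA per dividing cell cannot be told apart.

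**Figure D1:**
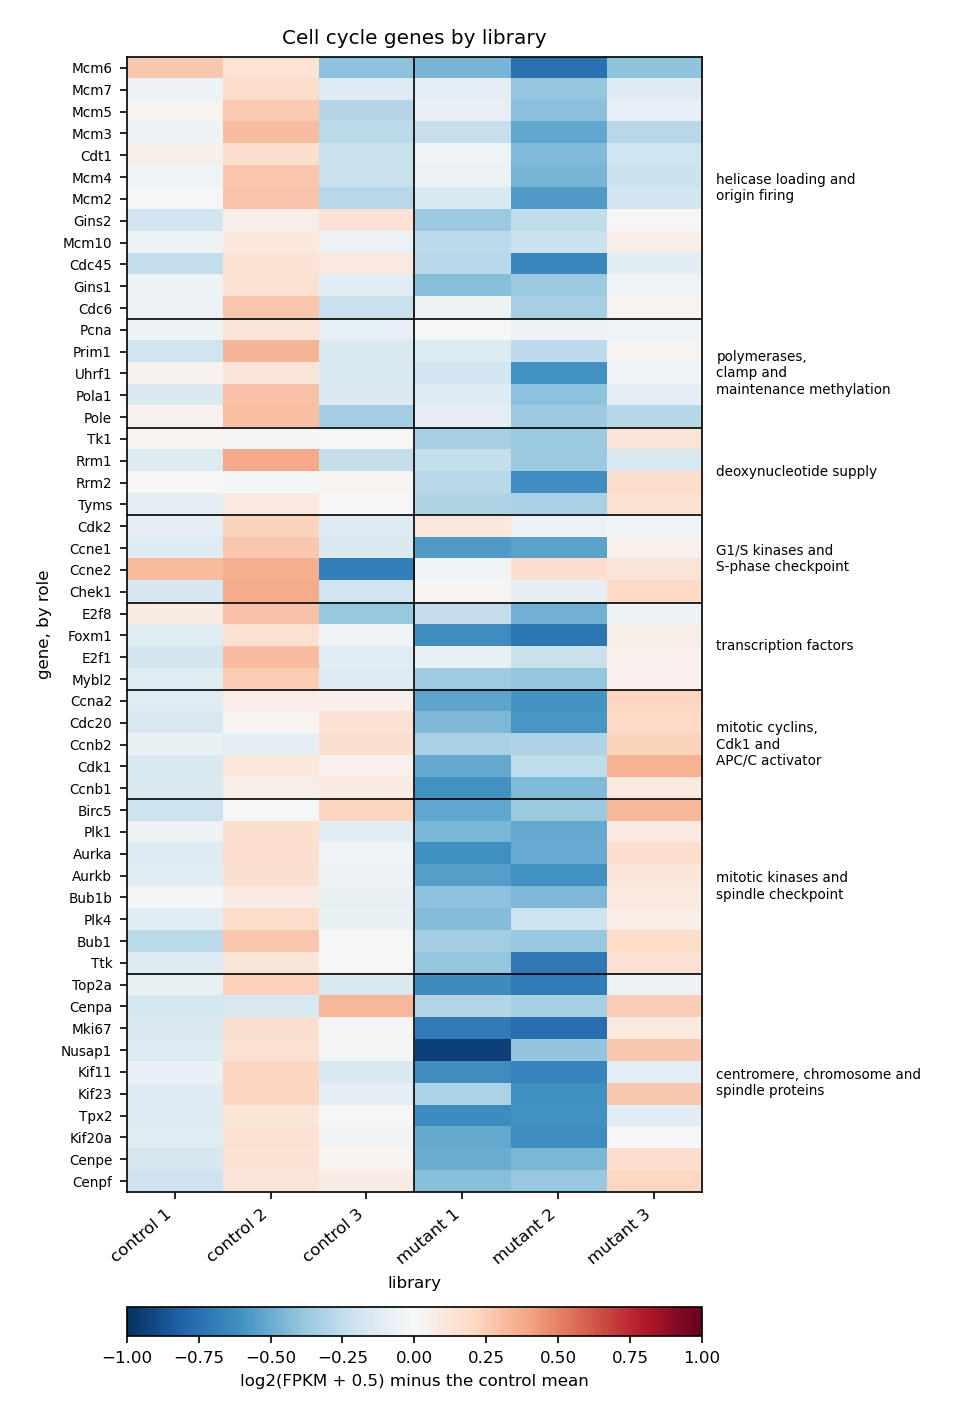
Each row is 1 of the 52 genes, grouped by role and ordered by mean FPKM, and each column is 1 library; colour gives log2(FPKM + 0.5) minus the gene's mean over the 3 controls, blue for lower and red for higher. The mitotic blocks are blue in mutants 1 and 2 and mostly pale red in mutant 3, where Top2a, Kif11 and Tpx2 lie slightly below the control mean. The 3 replication blocks have their lowest medians in mutant 2. The helicase and polymerase blocks have their highest in control 2 and the deoxynucleotide block in mutant 3.

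Library by library, the classes took different positions against the controls. Each of the 23 mitotic genes lay below all 3 controls in mutant 1 and again in mutant 2, where 28.7% and 40% of all genes did so. In mutant 3, 0 of the 23 lay below the controls, 10 lay within their range and 13 lay above it, where 14.2%, 55% and 30.8% of all genes did. Of the 21 replication genes, 9 lay below the controls in mutant 1, 20 in mutant 2 and 1 in mutant 3. The 3 controls differed too: 16 of the 21 replication genes were highest of all 6 libraries in control 2, and 17 of the 21 were lowest in mutant 2. Of the mitotic genes, 13 of 23 were highest in mutant 3 and 9 in control 2, and all were lowest in mutant 1 (10) or mutant 2 (13). The shares of all genes that were highest or lowest in each library were not worked out, so these counts have no background beside them.

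Among genes that load and fire the replicative helicase, Mcm6 stood out. Mcm6 (chr1:130228168-130256233, mm9), a subunit of the Mcm2-7 ring, lay at 39.9, 36.3 and 24.7 FPKM across controls 1 to 3 against 23.8, 19.4 and 24.8 FPKM across mutants 1 to 3. Control 3 thus lay with the mutants, at the level of mutant 3. The means were 33.6 ± 7.97 and 22.7 ± 2.86 FPKM (SD, n = 3 each), the log2 change was -0.54 ± 0.19 (SE), the largest of the 52, and limma's adjusted p was 0.999. Lct, the lactase gene of villus enterocytes, lies 3272 bases from Mcm6 and lay at 173, 139 and 21.3 FPKM across controls against 149, 166 and 33.6 FPKM across mutants. Lct was thus low in libraries 3 of both groups, which had nearly equal Mcm6, and its part in the Mcm6 values was not tested.

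The other ring subunits were at lower and similar levels. Mcm5 (chr8:77633427-77652338) lay at 16.7, 19.8 and 13.3 FPKM across controls against 15.4, 12.1 and 15.5 FPKM across mutants, with a log2 change of -0.20 ± 0.17. Here control 3 was below mutants 1 and 3, and only mutant 2 lay under all controls. Mcm7 lay at 19.0 ± 2.25 FPKM across controls against 16.4 ± 1.803 FPKM across mutants, with a log2 change of -0.21 ± 0.13. Mcm2, Mcm3 and Mcm4 had log2 changes of -0.30, -0.34 and -0.24, so all 6 subunits of the ring had a lower mean in mutants and none passed. Mcm6 was the highest of the 6 in each library on this scale, which corrects for length. In control 3 the ring subunits other than Mcm6 lay between 10.5 and 17.2 FPKM.

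The loading and firing factors also had lower means in the mutants. Cdt1, which brings the helicase to origins, lay at 14.3 ± 1.99 FPKM across controls against 12.2 ± 1.73 FPKM across mutants. Cdc45, a partner of the active helicase, lay at 6.72, 8.98 and 8.65 FPKM across controls against 6.54, 4.93 and 7.41 FPKM across mutants, a log2 change of -0.35 ± 0.18. Mutant 3 lay within the controls for Cdc45, and mutants 1 and 2 lay below them. Gins1 and Gins2, subunits of the GINS complex, had log2 changes of -0.28 and -0.21, Mcm10 one of -0.14, and Cdc6, the loading ATPase, one of -0.12. Median deviations of these 12 genes from the control mean were -0.05, 0.18 and -0.22 on the log2 scale in controls 1 to 3 and -0.19, -0.43 and -0.12 in mutants 1 to 3.

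Pcna, the sliding clamp of the DNA polymerases, was the most abundant of the 52, with mutants 1 to 3 close together. It lay at 73.2, 82.6 and 71.6 FPKM across controls against 75.4, 72.7 and 74.0 FPKM across mutants, with a log2 change of -0.03 ± 0.10, and of 0.03 without control 2. All 3 mutants lay within the range of the controls. Prim1, the primase subunit, lay at 12.7 ± 2.83 and 11.5 ± 1.20 FPKM (log2 change -0.12 ± 0.16, and 0.05 without control 2), with control 2 at 15.9 FPKM above the other 5 libraries. Pola1 and Pole, catalytic subunits of polymerases alpha and epsilon, had log2 changes of -0.21 and -0.25 at means of 3.60 and 1.97 FPKM in controls. Uhrf1, which recruits the maintenance DNA methyltransferase to new DNA, lay at 11.9 ± 1.15 and 9.87 ± 2.02 FPKM, with mutants 1 and 2 below all controls at 10.4 and 7.65 FPKM.

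Genes that supply deoxynucleotides included members that were steady in the controls. Tk1, thymidine kinase, lay at 22.9, 22.3 and 22.5 FPKM across controls against 17.8, 17.4 and 24.8 FPKM across mutants, a log2 change of -0.19 ± 0.15. Mutants 1 and 2 lay below the narrow range of the controls and mutant 3 above it. Rrm2, the regulated subunit of ribonucleotide reductase, repeated this with 18.7, 18.4 and 18.9 FPKM across controls against 15.3, 11.95 and 21.1 FPKM across mutants. Its partner Rrm1, the large subunit, did not: it lay at 18.04, 26.0 and 16.8 FPKM across controls against 16.8, 15.3 and 17.7 FPKM across mutants, with control 2 apart from the rest. Tyms, thymidylate synthase, lay at 7.86 ± 0.552 and 7.08 ± 1.46 FPKM. The subunits of 1 enzyme thus differed in which library was highest, Rrm2 in mutant 3 and Rrm1 in control 2.

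The G1/S kinase and checkpoint genes had a median log2 change of 0.03, which turned to -0.01 without mutant 3 and to -0.21 without both libraries numbered 3. Cdk2, the S-phase kinase, lay at 10.3, 12.97 and 10.1 FPKM across controls against 11.9, 10.6 and 10.8 FPKM across mutants (log2 change 0.01 ± 0.13, and between -0.05 and -0.04 without control 1, control 3 or mutant 1). Its partner cyclins differed from each other. Ccne1, cyclin E1, lay at 4.91, 6.62 and 4.86 FPKM across controls against 3.499, 3.58 and 5.58 FPKM across mutants (log2 change -0.35 ± 0.20), with mutants 1 and 2 below all controls as for the mitotic genes. Ccne2, cyclin E2, lay at 3.71, 3.85 and 1.597 FPKM across controls against 2.80, 3.28 and 3.19 FPKM across mutants (log2 change 0.09 ± 0.28), and turned to -0.26 without control 3. Chek1, the S-phase checkpoint kinase, lay at 2.07 ± 0.611 and 2.12 ± 0.279 FPKM (log2 change 0.04 ± 0.19), and turned to between -0.06 and -0.04 without control 1, control 3 or mutant 3.

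Of the transcription factors, Foxm1, an activator of mitotic genes, had the largest difference. It lay at 5.38, 6.63 and 5.76 FPKM across controls against 3.65, 3.37 and 6.17 FPKM across mutants, a log2 change of -0.43 ± 0.22. Mybl2, which encodes B-Myb, also lay below all controls in mutants 1 and 2, at 2.26 and 2.21 FPKM against at least 2.74 FPKM. E2f8, a repressor of the E2F family, lay at 8.21 ± 1.98 and 6.70 ± 1.06 FPKM (log2 change -0.26 ± 0.20). E2f1, an activator of S-phase genes, had a log2 change of -0.09 ± 0.17, and only mutant 2 (2.65 FPKM) lay below its controls. All 4 factors were highest in control 2 and lowest in mutant 2.

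Mitotic cyclins and their partners were lower in mutants 1 and 2 and higher in mutant 3 than in any control. Ccnb1 (chr13:101548694-101556441), cyclin B1, lay at 9.62, 11.2 and 11.4 FPKM across controls against 6.87, 7.75 and 11.5 FPKM across mutants, a log2 change of -0.32 ± 0.19. Ccna2, cyclin A2, lay at 27.8, 31.7 and 31.5 FPKM across controls against 20.8, 19.8 and 35.2 FPKM across mutants, a log2 change of -0.30 ± 0.22. Cdc20, the activator of the anaphase-promoting complex, lay at 22.4, 25.5 and 27.7 FPKM across controls against 18.3, 16.6 and 28.7 FPKM across mutants. In each of these the groups overlapped through mutant 3 alone. Cdk1, the mitotic kinase, and Ccnb2, cyclin B2, had a log2 change of -0.14 each, with mutant 3 above all controls at 19.9 and 26.5 FPKM.

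**Figure D2:**
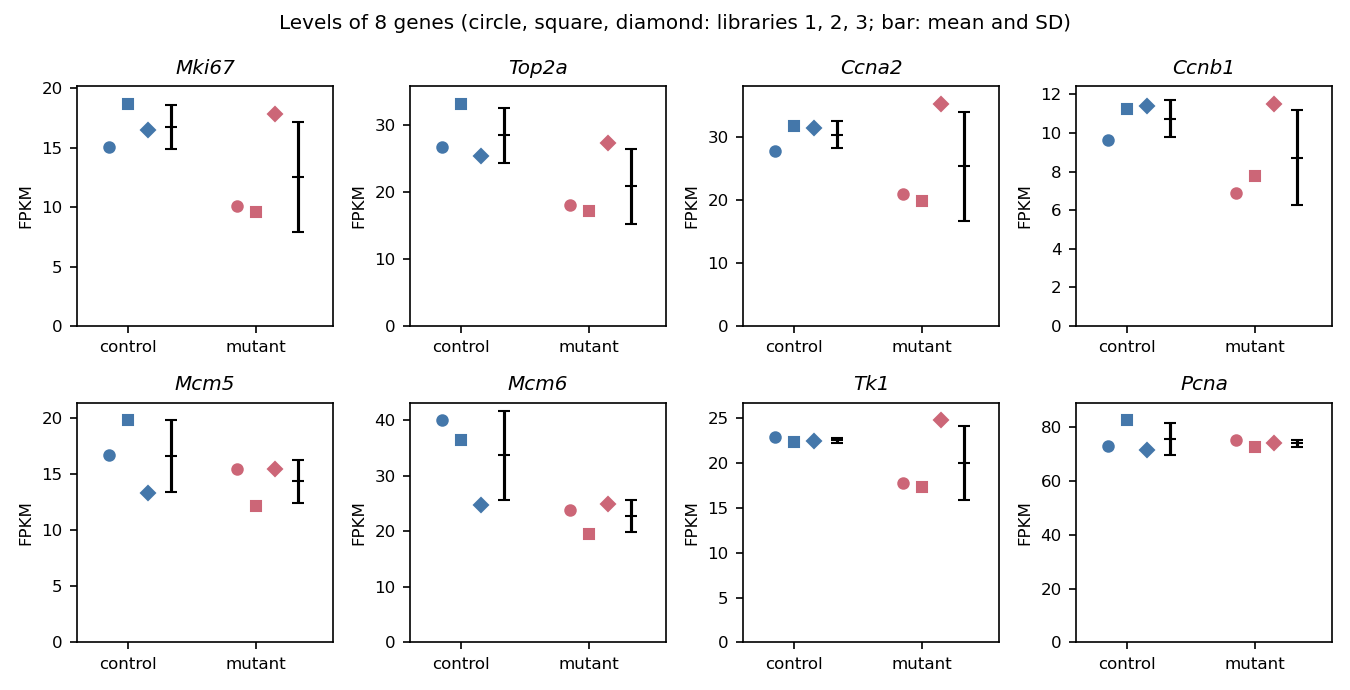
FPKM of 8 genes in each library; circles, squares and diamonds are libraries 1, 2 and 3, blue for control and red for mutant, and bars give the mean and SD of each group. For Mki67, Top2a, Ccna2, Ccnb1 and Tk1, mutants 1 and 2 lie below all controls and mutant 3 does not, while Pcna is level across the 6 libraries.

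Kinases of the spindle and its checkpoint followed. Birc5, or survivin, a subunit of the Aurora B complex, was the most abundant of the 23 mitotic genes. It lay at 45.2, 52.2 and 60.9 FPKM across controls against 36.3, 40.4 and 66.0 FPKM across mutants (log2 change -0.19 ± 0.23). Plk1, the Polo-like kinase of mitotic entry, lay at 15.4, 17.9 and 14.8 FPKM across controls against 11.5, 11.1 and 17.0 FPKM across mutants (log2 change -0.29 ± 0.18). Mutant 3 was above all controls for Birc5 and within them for Plk1. Aurka and Aurkb, the Aurora kinases, had log2 changes of -0.31 and -0.34, and the checkpoint kinases Ttk, Bub1b and Bub1 had changes of -0.32, -0.25 and -0.18. Plk4, which drives centriole duplication, had a change of -0.19. The medians of these 8 genes were -0.45, -0.48 and 0.14 for mutants 1 to 3, with controls from -0.12 to 0.16.

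Proteins of chromosomes, centromeres and the spindle had the largest differences among the mitotic genes, with a median log2 change of -0.37 over 10 genes. Mki67 (chr7:142881471-142908062), the Ki-67 proliferation marker, lay at 15.1, 18.7 and 16.5 FPKM across controls against 10.1, 9.61 and 17.9 FPKM across mutants, a log2 change of -0.46 ± 0.23. Top2a (chr11:98854261-98885503), the topoisomerase that untangles sister chromatids, lay at 26.7, 33.2 and 25.4 FPKM across controls against 18.1, 17.2 and 27.3 FPKM across mutants, a log2 change of -0.46 ± 0.19. Kif11 (chr19:37450893-37496349), the kinesin that separates spindle poles, lay at 9.81, 11.99 and 9.20 FPKM across controls against 6.48, 6.29 and 9.56 FPKM across mutants, a log2 change of -0.46 ± 0.18. For all 3, mutants 1 and 2 lay below every control and mutant 3 lay among the controls.

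Tpx2, a spindle assembly factor that activates Aurora A, lay at 7.51, 9.02 and 8.25 FPKM across controls against 5.16, 5.23 and 7.62 FPKM across mutants (log2 change -0.45 ± 0.17). Kif20a, Kif23 and Nusap1, which act at the central spindle or on spindle microtubules, had changes of -0.38, -0.22 and -0.36. For Nusap1, mutant 1 was the lowest library at 5.45 FPKM and mutant 2 lay at 8.15 FPKM. Cenpa, the centromeric histone, lay at 17.3, 17.5 and 24.7 FPKM across controls against 15.9, 15.5 and 23.3 FPKM across mutants (log2 change -0.12 ± 0.20, and 0.04 without control 3), so that libraries 3 of both groups were high. Cenpe and Cenpf, kinetochore proteins, had changes of -0.26 and -0.20 at control means of 3.18 and 2.10 FPKM.

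**Figure D3:**
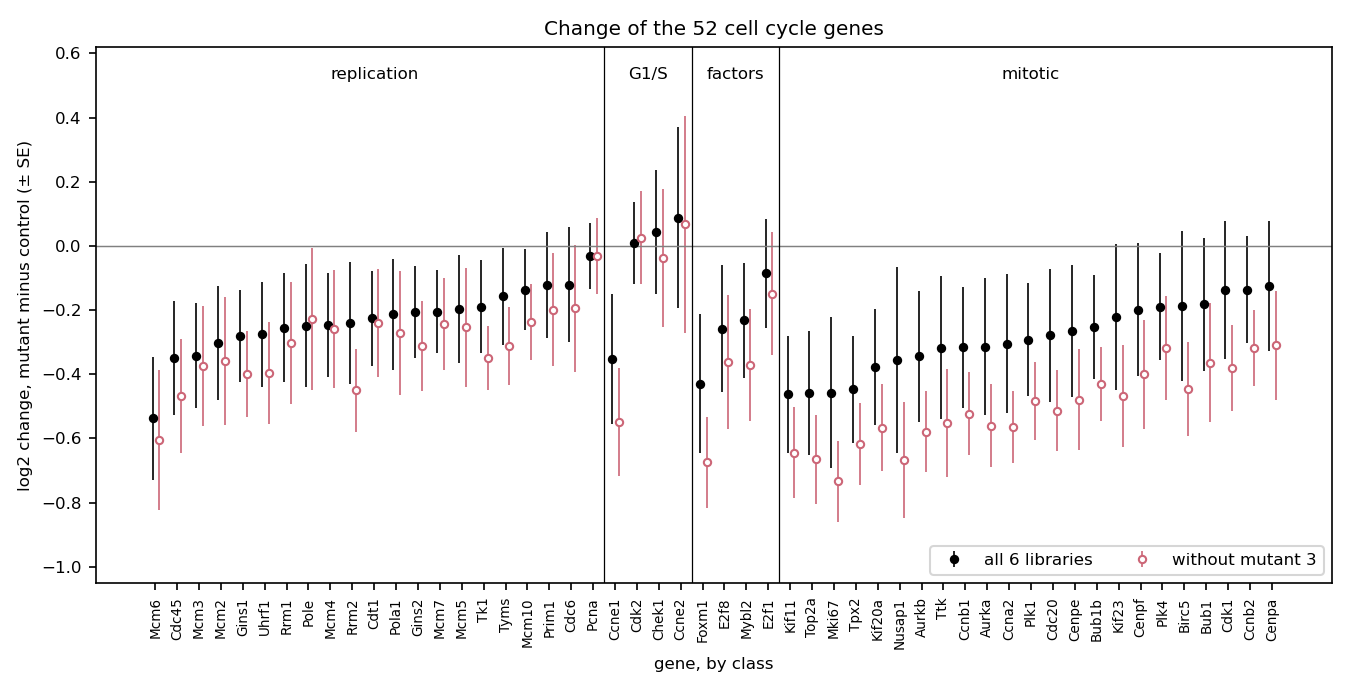
Log2 change of each of the 52 genes, mutant minus control, with its limma standard error, over all 6 libraries (filled black) and without mutant 3 (open red), ordered by class. Without mutant 3 all 23 mitotic genes move further below 0, and the median of the 21 replication genes moves from -0.23 to -0.30.

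The contrast of replication with mitotic genes differed between libraries of 1 group. Medians of the 21 replication genes were -0.05, 0.17 and -0.15 in controls 1 to 3 and -0.19, -0.39 and -0.08 in mutants 1 to 3, as log2 deviations from the control mean. Those of the 23 mitotic genes were -0.13, 0.14 and -0.01 in controls and -0.51, -0.51 and 0.17 in mutants. Without Mki67, Top2a, Ccna2 and Plk4, the other 19 gave -0.13, 0.13 and 0.00 in controls and -0.50, -0.46 and 0.18 in mutants. The replication median of mutant 3 lay within the controls and its mitotic median just above them. Replication minus mitotic was 0.08, 0.03 and -0.14 in controls and 0.32, 0.12 and -0.25 in mutants, so the mutants lay on both sides of the controls. The mean difference between groups in this measure was 0.07, and it turned to -0.01 without control 3 and to -0.05 without mutant 1. In both groups, library 3 had the lowest replication level relative to mitosis.

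Without mutant 3 the difference of the mitotic medians between groups went from -0.29 to -0.51, and that of the replication medians from -0.21 to -0.28. Then 20 of 23 mitotic and 7 of 21 replication genes had an unadjusted limma p under 0.05, all lower, where 10.4% of all genes reached it and 6.32% with a lower level, and 0 of the 52 passed the adjusted threshold (lowest adjusted p = 0.0829, for Mki67), where 0.468% of all genes did. Without mutant 3 the log2 change was -0.73 ± 0.13 for Mki67, -0.66 ± 0.14 for Top2a, -0.52 ± 0.13 for Ccnb1 and -0.25 ± 0.19 for Mcm5. Mutant 3 was the only mutant with no mitotic gene below the controls. Leaving it out could only lower the mitotic changes, so the counts without mutant 3 are no separate support. The reporter allele and any other difference of mutant 3 cannot be told apart, since no other library carried that allele. Without both libraries numbered 3, an alternative chosen after seeing the data, limma called 3 of the 52, all lower (Mcm6, adjusted p = 0.0156; Top2a, 0.0298; Mki67, 0.0393), where 1.4% of all genes were called and 0.362% were called lower. With the replicate number as a block, 0 of the 52 were called, where 0.162% of all genes were. Within same-numbered libraries the mitotic median differed by -0.38, -0.65 and 0.17 (mutant minus control, numbers 1 to 3) and the replication median by -0.14, -0.56 and 0.07.

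Other genes of the pathway were taken from lists outside the 52. Of 58 further mitotic genes, 56 had a lower mean in mutants, with a median log2 change of -0.26, and 0 passed the adjusted test. Their medians were -0.43, -0.46 and 0.09 for mutants 1 to 3, with controls from -0.13 to 0.13. Kif22, a chromosome-arm kinesin, had the smallest p among them, at 12.2 ± 1.04 FPKM across controls against 9.09 ± 1.58 FPKM across mutants, and Cdca2, a regulator of mitotic phosphatase, lay at 4.14 ± 0.346 and 3.01 ± 0.556 FPKM. Of 44 further replication genes, 38 had a lower mean, with a median of -0.11, and 0 passed. Rpa2, of the single-strand binding complex, lay at 14.6 ± 1.58 and 11.8 ± 1.41 FPKM, and Fen1, the flap nuclease, at 19.8 ± 1.17 and 16.2 ± 2.504 FPKM. Of 33 tested gene models of 32 genes for D-type cyclins, inhibitors, pocket proteins and related regulators (Cdkn2d has 2 models), 21 had a lower and 12 a higher mean, with a median of -0.07, and 0 passed. Cdk6 lay at 1.64 ± 0.373 and 1.14 ± 0.143 FPKM, and E2f2 at 7.53 ± 1.55 and 5.05 ± 2.22 FPKM.

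**Figure D4:**
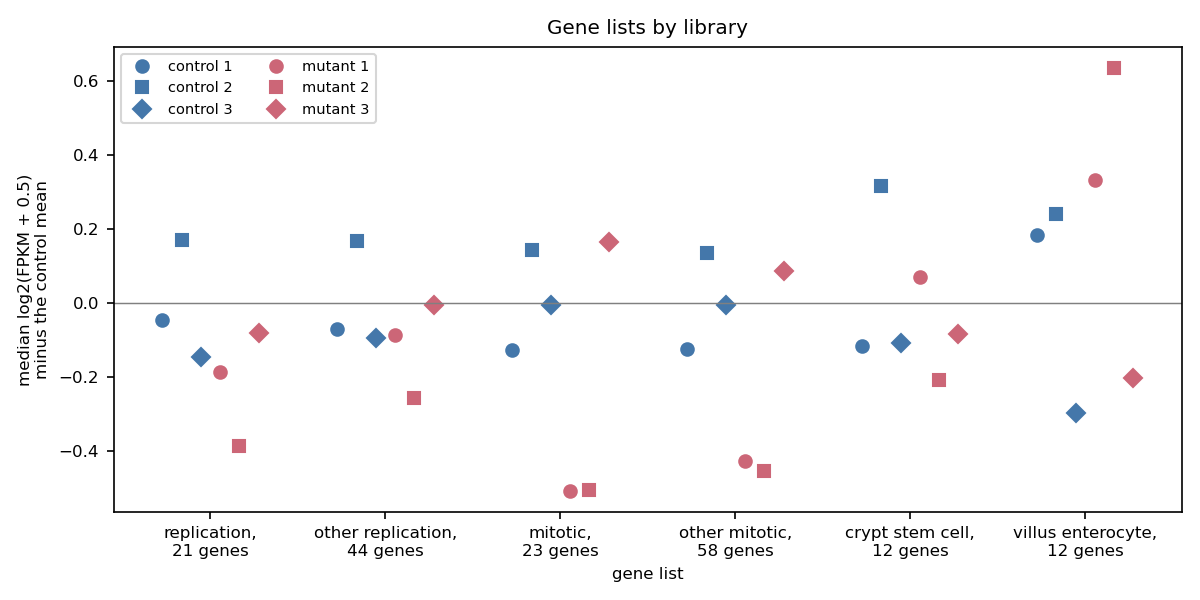
Median log2(FPKM + 0.5) minus the control mean for 6 gene lists, with 1 point per library, blue for control and red for mutant, and a marker shape per library number. Mutants 1 and 2 lie near -0.51 for the mitotic genes and at 0.33 and 0.63 for villus enterocyte genes, and libraries 3 of both groups lie low for villus enterocyte genes.

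The make-up of the tissue pieces also varied between libraries. The median of 12 crypt stem cell markers was 0.07, -0.21 and -0.09 for mutants 1 to 3, with controls from -0.12 to 0.32, so only mutant 2 lay below the controls, and their summed level was 276 to 441 FPKM in controls and 315 to 369 FPKM in mutants. The median of 12 villus enterocyte markers was 0.33, 0.63 and -0.20 in mutants and 0.18, 0.24 and -0.30 in controls, with a summed level of 18716 to 38463 FPKM in controls and 22785 to 47222 FPKM in mutants. The villus medians were highest in mutants 1 and 2, where mitotic genes were lowest, while the summed villus level of control 1 (38463 FPKM) was above that of mutant 1 (37536 FPKM). Smooth muscle markers (8 of 8 tested) had medians of 0.50 in control 3 and 0.23 in mutant 3 and of -0.29 to -0.16 in the other 4 libraries, at 553 to 1057 FPKM in controls and 594.5 to 845 FPKM in mutants. For B and plasma cells 9 of 10 markers matched and 4 were tested, and Cr2 was at 0 in 2 libraries. The 4 had medians of -0.33, -0.35 and 0.39 for mutants 1 to 3, with controls from -0.41 to 0.47. The summed B and plasma cell level, nearly all from Igj, was 812 to 1585 FPKM in controls and 713 to 1445 FPKM in mutants, highest in libraries 3. Igj, Cd79a and Cd79b were each highest of their group in libraries 3. Cd22 was lowest of its group there, at 0.756 FPKM in control 3 and 0.872 FPKM in mutant 3. No marker of the crypt, villus or muscle lists was at 0 in any library. The other lists were of cells near or within the epithelium. Medians in mutants 1 to 3 were 0.56, 0.14 and -0.01 for 8 Paneth cell markers, -0.23, -0.32 and -0.24 for 6 goblet cell markers, and 0.19, 0.00 and -0.02 for 10 T cell markers, where the controls spanned -0.28 to 0.23, -0.13 to 0.08 and -0.08 to 0.17. For 10 enteroendocrine markers they were -0.97, -1.09 and -1.66 against -0.31 to 0.17, and 1 of the 10 passed limma's adjusted test, Ghrl, the ghrelin gene, which rose from 70.6 ± 11.9 to 1108 ± 402 FPKM (adjusted p = 0.0276). With the replicate block 5 of the 10 passed, Ghrl higher and Chga, Chgb, Sct and Tph1 lower. Exocrine pancreas markers (10) gave -0.36, -0.9996 and -2.66 against -0.50 to 0.31. Brunner gland and stomach markers (7 tested gene models of 6 genes, of 8 listed) were apart in control 2, at 3.98, with mutant 3 at -3.36 and the other 4 libraries from -2.48 to -1.46. Control 2 was also the library in which 16 of the 21 replication genes were highest. The part of these differences in the cell cycle values was not tested.

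Changes were set beside the promoter letters shown above, without a test. Among mitotic genes the median log2 change was -0.27 for the 14 with CHR letters and -0.26 for the 5 without. Among replication genes it was -0.23 for the 11 with E2F letters and -0.17 for the 6 without, and without mutant 3 the order turned, at -0.27 with and -0.33 without. Top2a, with 4 CHR matches, and Kif11, with 1, had the same change of -0.46.

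Transcript isoforms and neighbours were checked for the members with more than 1 model. Of the 52 genes, 14 had several isoform models, 35 in all, of which 27 were tested and 0 called, where 0.00617% of all isoforms were. An unadjusted p under 0.05 was found for 1 of the 27, against 3.79% of all isoforms. In 3 of the 27 all mutants lay below all controls, a pattern found in 4.03% of all isoforms. For Gins1 this was the isoform of 1087 bases, at 6.20, 6.15 and 6.17 FPKM across controls against 4.82, 4.93 and 4.78 FPKM across mutants (log2 change -0.32 ± 0.10, limma adjusted p = 0.999). The Gins1 isoform of 644 bases was assigned 25.9% of the signal in mutant 3 and at most 17.7% in any other library. The Gins1 total was 6.45 FPKM in mutant 3, within the controls, so the separation rests on how signal was assigned to isoforms. For Plk4 nearly all signal was assigned to the isoform of 3547 bases in 3 libraries (control 1, control 2 and mutant 1), 82.5% in control 3, 77.1% in mutant 2 and 0.252% in mutant 3. These isoforms of Plk4 differ by few bases in length (3547 and 3543), and the Plk4 total was 4.30 FPKM in mutant 3, within the controls.

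Of the 52 gene models, 9 overlap another model, and the strand used in counting is not given in the sources used here. The overlaps are of Ccna2 with Exosc9 (863 bases), Ccne2 with Ints8 (5622 bases), Kif20a with Cdc23 (1595 bases) and Brd8 (187 bases), and shorter or lowly expressed ones for Cdc20, Nusap1, Foxm1, Gins2, Tk1 and the microRNA host Mcm7. Exosc9 lay at 19.4 to 23.03 FPKM in the 6 libraries with 19.6 FPKM in each of mutants 1 and 2, where Ccna2 was low. In the mm9 genome, further copies (identity of 95% or more, covering 50% or more of a transcript) were found for 5 genes, namely Ccnb1 (3 copies), Mcm7, Pcna, Tk1 and Uhrf1 (1 each), so the values of these 5 are less certain. In the authors' deposited table, made from counts, all 52 genes are listed, with log2 fold changes between -0.55 and 0.05 and a median of -0.23. That table of the authors gives 49 of the 52 a fold below 1, 5 a p-value under 0.05 (Mcm6, Kif11, Top2a, Tpx2 and Foxm1), and an adjusted p of 1 for each. It comes from the same 6 libraries, and the shares over all its genes were not worked out, so these counts are no separate support.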

How the data were processed

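Libraries had been made from total RNA (RIN above 8) with a TruSeq kit, per the labels' protocols. Of the authors' software, the submitters' processing notes list DESeq, Cufflinks, TopHat and CASAVA 1.8.2, with the build mm9 and no options. The authors deposited FPKM per gene and per isoform with Cufflinks intervals, and a coverage signal per isoform, per the file headers. The authors' deposited table of the comparison, from DESeq, gives group mean normalized counts as a signal, with the ratio (fold) of these means and its log2. The authors' p-value stands there raw and adjusted.

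Genes with at least 0.5 FPKM in at least 3 libraries (13596 of 23699; isoforms 16213 of 30028) were compared as log2(FPKM + 0.5), which understates changes of low genes. Groups were tested two-sided in R 4.3.3 by limma 3.58.1 (trend, robust prior, statmod 1.5.0), and p-values were adjusted by Benjamini and Hochberg's method over all genes, at a threshold of 0.05; the script was tested on simulated data. Depth came from the constant ratio of coverage to FPKM, with 101 bases per fragment fitted to values of 1 fragment. Copies were sought with minimap2 2.31-r1302. Python 3.11.15, pandas 2.3.3, numpy 2.4.6 and matplotlib 3.10.9 served for summaries and plots.

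The genes, lists and tests were chosen with earlier results of these data known. Fully described are 3 markers, the 2 highest genes of each of 8 roles, the 3 largest falls and the 3 largest rises, and genes with an unadjusted p under 0.05; other members and Ghrl were described after their values were seen. Of the listed genes, 2 matched no gene model. Both groups carry numbers 1 to 3, unexplained in the labels. Deviations from the group means correlated at 0.26, 0.25 and 0.58 within same-numbered libraries, each above 0.1, and the numbers were taken to pair them. Control 1 with mutant 2 gave 0.30 and control 2 with mutant 1 gave 0.19. Only number 3 thus stood apart, and the values do not show that libraries numbered 1 or 2 are pairs. Settings varied were the pseudocount (0.1 or 1), the filter (none, or 1 FPKM), the scaling (TPM, quantile or upper quartile), library weights, the prior (without trend or robustness), pairing by a replicate block, the threshold (0.1) and the libraries included.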

Additional observations from a re-analysis of the deposited data

How the results depend on the processing

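Under every alternative but 1 limma called 0 of the 52 genes, including the replicate block (0 called, lowest adjusted p = 0.563) and each left-out library (0 to 0); without both libraries numbered 3 it called 3. Without control 2 or mutant 2, 0 of the 52 had an unadjusted limma p under 0.05, against 4 in the main fit, where 3.43% of all genes did. Without mutant 3 there were 29, where 10.4% of all genes reached that p. Calls among the other cell cycle genes were 0 throughout except 1 without both libraries numbered 3, and isoforms gave 0 throughout. Calls over all genes were 3, and 2 with a pseudocount of 0.1, with TPM scaling or without trend and robust prior, 4 at an adjusted p of 0.1, 1 without a filter, 1 with upper quartile scaling, 19 with library quality weights, 22 with the replicate block, 186 without both libraries numbered 3, and 0 to 63 with 1 library left out. The replication median went from -0.21 to -0.37 without both libraries numbered 3, and to between -0.29 and -0.10 with 1 library left out; the mitotic median lay between -0.51 and -0.17 and the difference between -0.05 and 0.23. Of 391 values of 23 named genes under other settings, 387 moved by less than 1 SD of the replicates and 15 changed sign, in 6 genes of small change (Ccne2, Cdk2, Cenpa, Chek1, Pcna and Prim1). The cause was not tested.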
